A study of Homo sapiens with 12 samples.

Results

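The lists of H3K4me1 summits from Huh7 cells grown with 15 µM or 0 µM choline were compared. Huh7 is an established human hepatocellular carcinoma line, and the samples are labelled as wild type (WT). Both H3K4me1 libraries came from cells treated for 48 h and used the same antibody (Cell Signaling Technology 5326S), with 1 library per dose. The medium was a custom DMEM lacking choline chloride, in which B-27 took the place of serum, and choline chloride was added back to set the dose, so the 0 µM cells lacked both serum and added choline while the 15 µM cells lacked serum only. A summit is the position of highest enrichment within a called peak. Every summit on chromosomes 1 to 22 and X was a member: 343156 at 0 µM and 349202 at 15 µM, together 692358 of the 759609 summits in 4 lists, the others being H3K27ac summits of the same doses. Each result is given for all scores and for strong summits, meaning those with a score of 10 or more, where the score is the −log10 of the peak caller's p-value or q-value. Strong summits numbered 32692 at 0 µM and 39414 at 15 µM. The peak names inside the H3K4me1 lists carry letters and no dose, so the assignment of a list to a dose rests on the sample labels. With 1 library per dose, every difference is between 2 libraries, no p-value was computed, and intervals cover counting error only.

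H3K4me1, monomethylation of lysine 4 of histone H3, is the classical mark of enhancers, both those in use and those held poised. It is written mainly by KMT2C and KMT2D and removed by KDM1A, and it typically flanks active promoters, whose starts carry trimethylation instead. Enhancers in use carry H3K27ac as well. The methyl group comes from S-adenosylmethionine, and choline feeds that supply in liver through betaine and the methionine cycle.

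The series labels the cells as hepatocellular carcinoma cells, and the windows of hepatocyte genes were read as a check. Within 50 kb of the gene ends, each of the 7 hepatocyte markers ALB, APOA1, APOB, TTR, SERPINA1, FGB and AFP had strong summits at both doses, from 2 at TTR to 13 at AFP at 0 µM and from 2 at TTR to 13 at FGB at 15 µM. ACTA2, a smooth muscle and stellate cell gene, NEUROD1, a neuronal factor, MYOD1, a muscle factor, and SPI1, a blood cell factor, had 0 strong summits at both doses. H3K27ac summits around the 7 hepatocyte markers ranged from 3 to 24 at 0 µM and from 2 to 44 at 15 µM. Strong summits were also present at 7 markers of other cell types. PECAM1, an endothelial gene, had 6 strong H3K4me1 summits at 0 µM and 3 at 15 µM, with 6 and 9 H3K27ac summits, and COL1A2, a collagen gene of fibroblasts, had 4 and 5 of each mark. These match or exceed TTR, which had 2 strong summits in both lists and 3 and 2 H3K27ac summits. PTPRC, the leukocyte antigen CD45, had 5 and 4 strong summits, CD3E 3 and 3, COL1A1 2 and 3, SYP 2 and 1, and DES 2 and 2, with at most 3 H3K27ac summits each. The H3K4me1 windows alone therefore do not set the hepatocyte markers apart.

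Promoter sequences show the kind of gene start at which H3K4me1 summits lay. Each is the 250 bases before the start of a gene in the RefSeq promoter table (GRCh38.p14), written 5′ to 3′ on the gene's strand, with CpG dinucleotides in capitals. The first 4 had a strong summit inside the printed bases at one dose and no summit of any score within 2 kb of the start at the other. TNFSF4 (chr1:173205533-173205782, minus strand) encodes OX40 ligand and had its summit at 15 µM. TMEM156 (chr4:39032410-39032659, minus strand), PLEKHG1 (chr6:150632714-150632963, plus strand) and PIPOX (chr17:29042891-29043140, plus strand), which encodes peroxisomal sarcosine oxidase, had theirs at 0 µM.
TNFSF4: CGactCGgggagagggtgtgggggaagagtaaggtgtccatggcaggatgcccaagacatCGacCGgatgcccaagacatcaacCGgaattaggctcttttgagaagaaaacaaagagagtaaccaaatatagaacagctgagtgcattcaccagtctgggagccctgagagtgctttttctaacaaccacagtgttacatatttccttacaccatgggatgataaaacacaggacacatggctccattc
TMEM156: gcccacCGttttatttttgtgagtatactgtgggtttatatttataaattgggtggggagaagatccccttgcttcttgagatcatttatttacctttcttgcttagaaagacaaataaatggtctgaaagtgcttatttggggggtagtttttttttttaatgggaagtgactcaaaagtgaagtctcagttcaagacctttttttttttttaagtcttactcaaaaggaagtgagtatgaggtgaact
PLEKHG1: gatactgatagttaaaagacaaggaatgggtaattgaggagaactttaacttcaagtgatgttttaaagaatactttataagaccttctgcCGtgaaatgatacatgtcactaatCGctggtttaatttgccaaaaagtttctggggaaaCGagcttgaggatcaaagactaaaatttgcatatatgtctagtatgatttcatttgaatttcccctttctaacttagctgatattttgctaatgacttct
PIPOX: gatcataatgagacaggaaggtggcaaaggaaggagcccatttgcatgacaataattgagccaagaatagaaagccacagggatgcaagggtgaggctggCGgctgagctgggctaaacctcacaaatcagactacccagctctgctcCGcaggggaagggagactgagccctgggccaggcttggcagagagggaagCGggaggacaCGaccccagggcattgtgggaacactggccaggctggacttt
These hold 5, 1, 3 and 4 CpG. The median over 15811 promoters was 17.

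Below are the promoters of SSBP2 (chr5:81751808-81752057, minus strand), a partner of LIM-domain transcription complexes, and ATOH8 (chr2:85753741-85753990, plus strand), a basic helix-loop-helix factor, chosen after their values were seen, and of KLF5 (chr13:73054726-73054975, plus strand), the factor the series follows. Around SSBP2 strong summits were more numerous at 15 µM, and around ATOH8 they were found at 0 µM and not at 15 µM.
SSBP2: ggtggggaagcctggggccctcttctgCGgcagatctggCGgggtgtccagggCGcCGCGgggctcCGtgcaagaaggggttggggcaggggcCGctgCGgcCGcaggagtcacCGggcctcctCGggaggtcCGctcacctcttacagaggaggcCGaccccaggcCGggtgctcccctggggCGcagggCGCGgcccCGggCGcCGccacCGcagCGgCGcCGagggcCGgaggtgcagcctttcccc
ATOH8: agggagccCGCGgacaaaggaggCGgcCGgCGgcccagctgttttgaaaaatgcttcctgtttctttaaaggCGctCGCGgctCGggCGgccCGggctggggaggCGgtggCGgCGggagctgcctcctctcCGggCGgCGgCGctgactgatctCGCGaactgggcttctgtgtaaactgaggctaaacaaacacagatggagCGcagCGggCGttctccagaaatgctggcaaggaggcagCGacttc
KLF5: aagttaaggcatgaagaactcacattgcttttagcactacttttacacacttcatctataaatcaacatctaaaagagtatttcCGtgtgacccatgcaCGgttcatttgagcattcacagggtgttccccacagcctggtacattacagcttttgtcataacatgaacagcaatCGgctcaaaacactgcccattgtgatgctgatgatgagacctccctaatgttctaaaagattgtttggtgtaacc
The SSBP2 and ATOH8 promoters hold 25 and 24 CpG, and the KLF5 promoter at this start holds 3. None of these 3 held a summit at either dose, and the nearest to the SSBP2 start lay 791 bp away at 0 µM and 667 bp away at 15 µM.

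Promoters with a summit close to the start held fewer CpG than the median promoter at both doses. Where a summit lay within 250 bp of the start, the median promoter held 8 CpG at 0 µM (968 starts) and 7 at 15 µM (887 starts), against 20 and 19 where the nearest summit lay between 250 bp and 1 kb away. For the 208 starts with a summit within 250 bp at both doses the median was 5. Starts with no summit within 5 kb were also poor in CpG, with a median of 6 at both doses. The motif CCCCNCCC, of the kind that KLF and SP factors bind, was searched on both strands with no other motif beside it. It was present in 45.7% of all promoters, in 38.3% (95% exact Clopper-Pearson interval 35.3 to 41.5) and 37.0% (33.8 to 40.3) of those with a summit within 250 bp at 0 and 15 µM, and in 50.3% and 49.7% of those with the nearest summit between 250 bp and 1 kb away. Of the 7 sequences printed, only that of TMEM156 holds it, once, from base 51. The median GC content of these 2 classes at 0 µM was 57.6% and 64.4%, and its part in the motif shares was not tested. A match is not a binding site.

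The first comparison was of the number and scores of summits. The 15 µM list was 1.02 times as long as the 0 µM list and held 1.21 times as many strong summits. Median scores were 3.48 (0 µM) and 3.47 (15 µM), and the lists parted in the upper range. The ratio of 15 µM to 0 µM counts was 0.959 at a score of 5 or more, 1.60 at 15 or more, 2.17 at 20 or more and 3.48 at 30 or more. At 20 or more this was 10356 summits against 4766, and at 30 or more 2389 against 686. Above a score of 100 the order turned, with 53 summits at 0 µM and 2 at 15 µM. The same rank also carried unequal scores: the summit ranked 10000 scored 16.3 at 0 µM and 20.3 at 15 µM, whereas the one ranked 100000 scored 5.31 and 5.21. Low scores fell on a few repeated values that differ between the lists. The commonest was 2.65 at 0 µM (31535 summits) and 2.20 at 15 µM (32901 summits), so equal scores do not mark equal enrichment in both. The score also depends on read depth, which is not known here, and depth, efficiency of the precipitation and the level of the mark cannot be told apart.

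**Figure D1:**
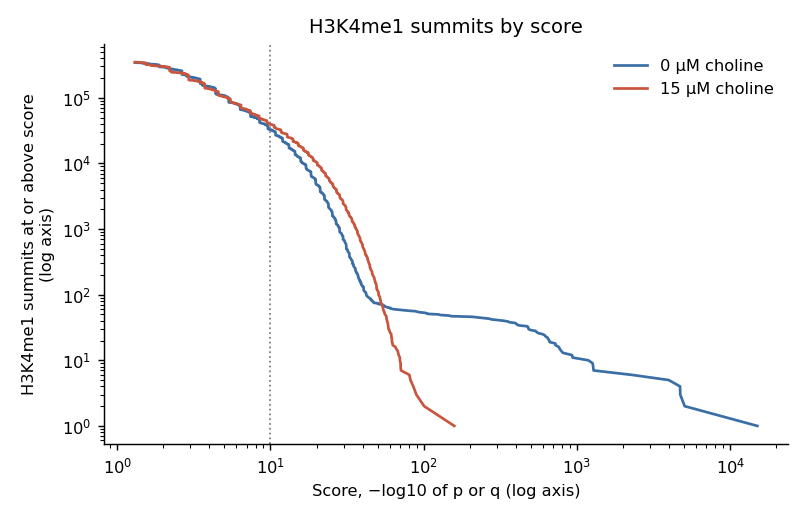
Number of H3K4me1 summits at or above each score in the 0 µM (blue) and 15 µM (red) lists, with both axes logarithmic and a dotted line at the score of 10. The curves overlap at low scores, the 15 µM curve lies higher between about 10 and 50, and the 0 µM curve has a tail of 53 summits from a score of 100 up to 15025.

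The second comparison asked where strong summits differed between the doses. It counted strong summits within 50 kb of either end of each protein-coding gene, and scaled the 0 µM count by the ratio of the strong lists. A difference is on the scale log2((15 µM count + 1) / (scaled 0 µM count + 1)), and a window was called when it passed 1.5-fold with at least 10 summits over both lists. Of 19970 genes, 2681 reached 10 strong summits. Of these, 206 were called higher at 15 µM, which is 7.68% of the windows tested, and 325 were called lower, which is 12.1%. The median log2 difference over the 2681 was -0.07. Without scaling, 469 were higher and 100 lower, so 82.4% of calls were higher, against 38.8% with scaling, and the median moved to 0.17. Directions below are therefore relative to the 1.21-fold longer strong list.

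Genes were ranked by the 15 µM count minus the scaled 0 µM count, and by that measure the window of SSBP2 had the largest gain. Its strong summits numbered 5 without choline and 17 with it, a log2 difference of 1.36, while its summits of all scores numbered 48 and 56. The 5 summits at 0 µM scored from 10.8 to 18.4 and the 17 at 15 µM from 10.6 to 21.6. The summit at -4.02 kb from the SSBP2 start scored 10.8 in the 0 µM list, and the 15 µM summit at -4.04 kb scored 17.7. HAPLN1, which encodes a link protein of hyaluronan and proteoglycans and lies on the same chromosome arm, had 1 strong summit at 0 µM and 9 at 15 µM. The single one, 40.5 kb downstream of the HAPLN1 start, scored 11.7 at 0 µM and had a 15 µM counterpart at 40.5 kb that scored 10.9. The HAPLN1 window held 0 H3K27ac summits at both doses, and that of SSBP2 held 7 at 0 µM and 4 at 15 µM.

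Further gains of strong summits lay around genes of unlike function. ALPK3, an alpha kinase of heart muscle, and TNFSF4 each had 2 strong summits at 0 µM and 10 at 15 µM. PDE3B, a phosphodiesterase that degrades cyclic AMP, and TMOD3, a tropomodulin that caps actin filaments, each had 3 and 11. ATXN1, the ataxin-1 gene, and ME3, a mitochondrial malic enzyme, each had 4 and 12. In 5 of these 6 windows the count over all scores differed by at most 7 summits, as at PDE3B with 46 in both lists and at ME3 with 51 and 52. ATXN1 went from 58 to 47 over all scores, so there more strong summits stood among fewer summits. With strong lists of equal length the counts at HAPLN1, ALPK3 and TNFSF4 fell under the minimum of 10, with log2 differences of 1.81, 1.22 and 1.42. Within 20 kb of the gene ends all 8 fell under it: SSBP2 had 2 and 7, PDE3B 0 and 5, TMOD3 1 and 5 and HAPLN1 0 and 4, whereas ME3 had 0 and 1, and TNFSF4 had 1 and 1, a difference of -0.14.

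The largest losses of strong summits by scaled count were at 8 further genes. POC1B-DUSP6, a readthrough locus of POC1B and DUSP6, the latter a phosphatase of ERK, had 17 at 0 µM and 10 at 15 µM. TGFBR2, a receptor of TGF-beta, had 23 and 18. SDC2, the heparan sulfate proteoglycan syndecan-2, had 17 and 11, and COL18A1, the collagen from which endostatin is cut, had 11 and 4. SPTSSB, a small subunit of serine palmitoyltransferase, had 19 and 14. ARHGAP29, a GTPase-activating protein, and CXXC5, a CXXC zinc-finger protein, each had 14 and 8. The calls for TGFBR2 and SPTSSB ended without scaling and in 100 kb windows (-0.55 and -0.32), as did TGFBR2 at equal list length (-0.34) and ARHGAP29 in 100 kb windows (-0.45). Those for POC1B-DUSP6 (7 and 6 strong summits, -0.43), SDC2 (5 and 2) and COL18A1 (4 and 2) ended in 20 kb windows, the last 2 for want of summits. The call for CXXC5 held under the other windows, scalings, list lengths and spacing tried, but its log2 difference of -0.99 falls short of 2-fold. Its single highest summit was nonetheless at 15 µM, with a score of 31.2 at 6.63 kb downstream of the start, next to a 0 µM summit at 6.22 kb that scored 18.0.

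ATOH8 had 7 strong summits at 0 µM and 0 at 15 µM, and with fewer than 10 in all it was named by the size of its fall and not tested. The 7 scored from 10.8 to 15.8 and lay between -12.5 and 56.9 kb from the ATOH8 start. The highest 15 µM score in the window was 9.50, just under the threshold, and the count over all scores was 60 at 0 µM and 40 at 15 µM, a log2 difference of -0.60 that passes 1.5-fold. The ATOH8 window held 0 H3K27ac summits at both doses.

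**Figure D2:**
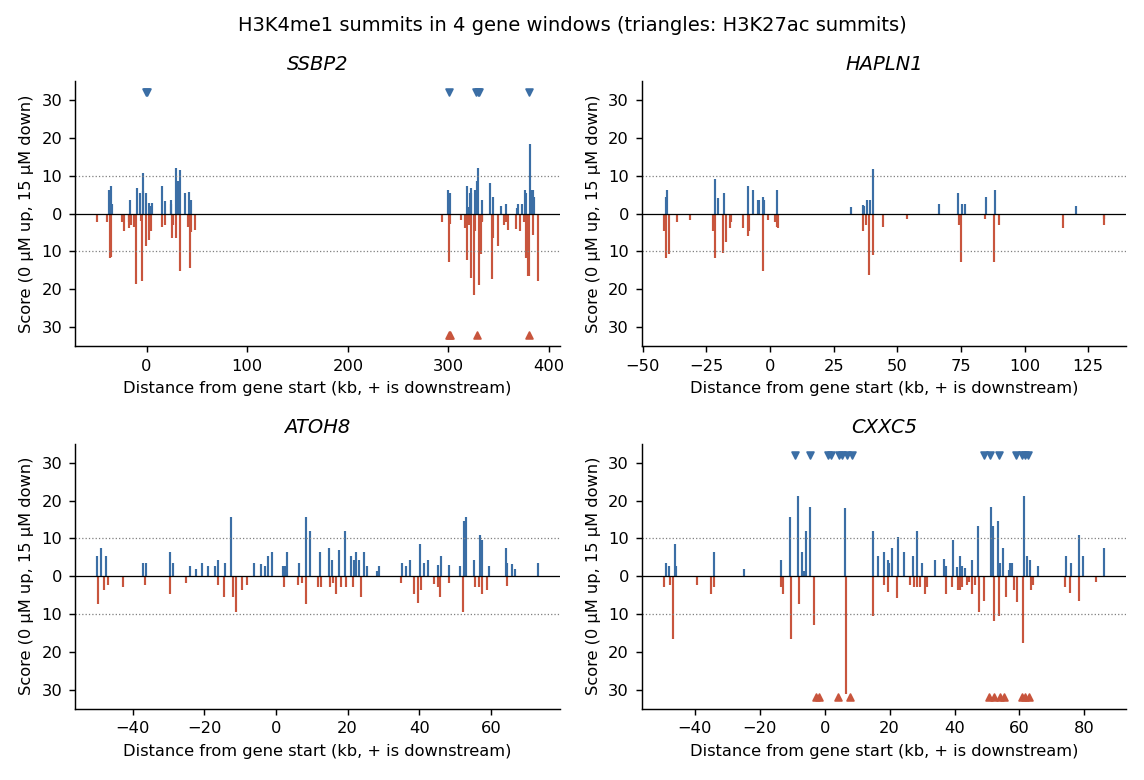
H3K4me1 summits in the windows of SSBP2, HAPLN1, ATOH8 and CXXC5 by distance from the gene start in kb, with the score as the height of each line (0 µM upward in blue, 15 µM downward in red), dotted lines at the score of 10 and triangles for H3K27ac summits. For SSBP2 only the 50 kb around each gene end were counted. SSBP2 and HAPLN1 have more lines past 10 at 15 µM (17 against 5 and 9 against 1), whereas ATOH8 and CXXC5 have more at 0 µM (7 against 0 and 14 against 8).

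Counts over all scores gave other genes. Of 19970 genes, 17695 had at least 10 summits, and 1326 were called higher at 15 µM (7.49%) and 870 lower (4.92%), around a median log2 difference of 0.01. MBNL1, a splicing regulator, had 33 summits at 0 µM and 60 at 15 µM, PSPC1, a paraspeckle protein, 23 and 47, SPATA13, an exchange factor for small GTPases, 15 and 38, and ERC1, a scaffold protein, 27 and 49. ISL2, a LIM homeobox factor, went from 34 to 57, POLK, a translesion DNA polymerase, from 35 to 57, and NOTCH2, a Notch receptor, from 49 to 74, the last not past 1.5-fold. NOTCH2 has near-identical partial copies in the genome, so its count is uncertain. CD3E, a subunit of the T cell receptor complex, went from 18 to 39, and its neighbours CD3D and CD3G, whose windows overlap its own, from 16 to 31 and from 18 to 34. In 100 kb windows the calls for MBNL1 (0.21), PSPC1 (0.51), ISL2 (0.52), ERC1 (0.53) and POLK (0.53) ended, and those for SPATA13 (0.79) and CD3E (0.76) did not. With 1 summit per 1 kb those for ISL2 (0.30) and POLK (0.43) ended too. Strong summits at CD3E stayed at 3 in both lists, as did MBNL1 near 5 and 6 and PSPC1 at 1 and 1. The excess at CD3E, MBNL1 and PSPC1 was thus in summits scoring under 10.

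The largest falls of the scaled count over all scores were at MAN1A1, RAI14, TLE1 and LIN7A, and on the log2 scale MED19 (-1.53) and SPTLC1 (-1.09) fell furthest of the 8 named. MAN1A1, a Golgi mannosidase, had 84 summits at 0 µM and 53 at 15 µM, with 14 and 18 strong ones. RAI14, an actin-binding protein, had 70 and 41, with 8 and 9 strong ones, and LIN7A, a cell polarity scaffold, had 68 and 45, with 6 and 10 strong ones. TLE1, a Groucho-type corepressor, had 79 and 53, and its call ended under 6 of the alternatives. AFF3, a nuclear protein related to elongation factors, had 59 and 36. SMAD3, an effector of TGF-beta, had 68 and 46, just short of 1.5-fold. SPTLC1, a subunit of serine palmitoyltransferase, had 41 and 19, and MED19, a Mediator subunit, had 33 and 11. At MAN1A1 and LIN7A the total was lower at 15 µM and the strong count higher, also after scaling (log2 differences of 0.09 and 0.42), and at RAI14 the scaled strong difference was -0.09. The calls for RAI14, LIN7A and AFF3 ended in 100 kb windows (-0.35, -0.37 and -0.43) and that for MAN1A1 with 1 summit per 1 kb (-0.53). The MED19 call ended in 20 kb windows, which held 6 and 3 summits, and that for SPTLC1 held under the windows, scalings, list lengths and spacing tried.

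KLF5 was not called over all scores, and with 9 strong summits in both lists together it was not tested on those. The window had 30 and 39 summits, 5 and 4 of them strong, and 6 and 12 H3K27ac summits. AFP and ALB, which encode alpha-fetoprotein and albumin and have overlapping windows, had fewer H3K4me1 summits at 15 µM (41 to 23 and 37 to 20). Their H3K27ac summits went the other way (18 to 42 and 24 to 44). Strong H3K4me1 summits were 13 and 9 at AFP and 10 and 9 at ALB.

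The gene lists followed roles in methyl supply and in liver, and each is described by counts. Over all genes tested, 7.49% were called higher and 4.92% lower at all scores, with a median of 0.01, and 7.68% higher and 12.1% lower on strong summits, with a median of -0.07. Of the 22 enzymes that write, read or erase H3K4 methylation, KDM1B, a lysine demethylase, was called higher (11 to 19 summits) and WDR5, a subunit of the methyltransferase complexes, lower (25 to 16), with a median of 0.15 over 22 tested. In 20 kb windows KDM1B had 6 summits at both doses (-0.022) and the WDR5 call ended (-0.44). The WDR5 call also ended in 100 kb windows (-0.31), and the KDM1B call with 1 summit per 1 kb (0.29). Strong summits around RCOR1, the corepressor partner of KDM1A, went from 2 to 8, and around KDM1A itself from 7 to 5, the latter not past the fold without scaling. The KDM1A call also ended in 20 kb and 100 kb windows and at equal list length. In 20 kb windows RCOR1 had 0 and 1 strong summits, too few for a call. In choline uptake and phosphatidylcholine synthesis, 1 of 17 tested was called, the organic cation transporter SLC22A2 (18 to 28). The SLC22A2 call ended in 20 kb (0.41) and 100 kb (0.45) windows, with 1 summit per 1 kb (0.49) and at equal list length (0.51). CHKA, which phosphorylates choline, had 47 summits and 13 strong ones in both lists. In the betaine and methionine cycle, 1 of 19 was called, SHMT1, a serine hydroxymethyltransferase (8 to 15), which ended in 100 kb windows (0.31). DMGDH, dimethylglycine dehydrogenase, had 60 and 46 summits and 7 strong ones at both doses. The medians of the last 2 lists were -0.02 and 0.02.

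Hepatocyte genes had a median below that of all genes, although few passed the fold. The 28 secreted and metabolic genes summed to 868 summits at 0 µM and 782 at 15 µM, with a median log2 difference of -0.27 over 27 tested. ALB, AFP and HP, which encodes haptoglobin, were called lower (HP from 32 to 21), and HPX, which encodes hemopexin, was called higher (25 to 41). The ALB call ended in 20 kb (-0.44) and 100 kb (-0.55) windows and the AFP call in 100 kb windows (-0.49), while the HP call held in both. Of 17 tested on strong summits, 0 were called higher and 3 lower: AFP, APOE (9 to 6) and ITIH2 (6 to 4), with a median of -0.38, against 12.1% lower and a median of -0.07 over all genes, although the strong total was 160 in both lists. All 3 calls ended without scaling. Among 22 liver transcription factors 0 were called over all scores, and HNF4G had the highest difference (19 to 27). On strong summits CEBPA (10 to 7) and GATA4 (12 to 9) of 13 tested were called lower, both of them lost without scaling, and FOXA1 had the highest difference (5 to 9). Members of the list sit in clusters and share summits, as ALB does with AFP.

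Of 6 members of the glycolysis and hypoxia list tested on strong summits, 3 were called lower and 0 higher: PFKFB3, a regulator of glycolysis (9 to 5), VEGFA, the endothelial growth factor (10 to 6), and ADM, adrenomedullin (7 to 5), with a median of -0.45, against 12.1% lower and 7.68% higher over all windows tested. The ADM call ended without scaling and in 20 kb and 100 kb windows. In 20 kb windows PFKFB3 had 1 and 0 strong summits and VEGFA 2 and 1, too few for a call. VEGFA was at -0.25 in 100 kb windows. Over all scores the 28 genes summed to 749 and 677, with PFKM higher (11 to 22) and PKM lower (46 to 28). Both calls ended with 1 summit per 1 kb (0.47 and -0.58), and that for PKM also in 100 kb windows (-0.54). Of 13 tested YAP and TEAD targets, 3 were lower (YAP1, AMOTL2 and CRIM1, the last from 14 to 10) and 0 higher, against 12.1% and 7.68% over all windows, and the list median was -0.23. Each of these 3 calls ended without scaling, and YAP1 was at 0.12 in 20 kb windows. Of 4 KLF and SP factors tested on strong summits, KLF6 was lower (11 to 6), with a median of -0.10, and over all scores KLF17 was higher (14 to 22) and KLF2 lower (28 to 18), with a median of -0.08 over 19 tested. The KLF6 call ended in 20 kb windows (3 and 2 summits), and those for KLF17 (0.30) and KLF2 (-0.40) ended in 100 kb windows.

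Most other lists held calls in both directions or few calls, and the neuron and muscle list held only lower calls. Over all genes tested, 7.49% were called higher and 4.92% lower at all scores, and 7.68% and 12.1% on strong summits. In sterol and fatty acid synthesis, strong summits around SCAP, the escort of the sterol sensor, went from 3 to 8 and around the desaturase SCD from 8 to 6, while over all scores INSIG1 was higher (11 to 18) and DHCR7 lower (25 to 14), with medians of 0.23 and 0.06. SCAP turned to -0.19 in 20 kb windows. The SCD call ended without scaling (-0.36) and in 20 kb (-0.49) and 100 kb (-0.54) windows. In 100 kb windows the INSIG1 call ended (0.42) and the DHCR7 call held (-0.59). In the mesenchymal list, ZEB1 went from 4 to 8 strong summits and TGFBR2 from 23 to 18, and TWIST2 had 8 and 13 summits over all scores, with medians of -0.02 and -0.01. ZEB1 turned to -0.14 in 20 kb windows. In the Notch and Wnt list JAG2, a Notch ligand, went from 3 to 11 and NOTCH4 from 15 to 24, and HES1, a Notch target, had 7 and 13 strong summits, short of 1.5-fold after scaling. In 100 kb windows the JAG2 call ended (0.30) and the NOTCH4 call held (0.67). The medians of the Notch and Wnt list were 0.03 over all scores and -0.19 for strong summits. Among cell cycle genes CCND3 (11 to 24) and PLK1 (6 to 14) were higher and AURKA (15 to 9) lower, with a median of 0.07. The calls for CCND3 (0.25) and PLK1 (0.52) ended in 100 kb windows and that for AURKA in 20 kb windows (10 and 8 summits). Of 17 ubiquitous genes, TUBA1B (13 to 22) and EEF2 (18 to 28) were higher and 0 were lower, with a median of 0.05. Both calls ended in 100 kb windows (0.39 and 0.45). Markers of other cell types were called as well. Of 17 blood genes tested 4 were higher, of which 3 were the CD3 genes and the fourth NCAM1 (2 to 9). Of 15 fibroblast, stellate and endothelial genes, CDH5 and LYVE1 were higher and PDGFRB lower (18 to 8). Of 15 neuron and muscle genes 0 were higher and 3 lower, namely MYOD1, MYH7 and TNNT2 (19 to 7 for TNNT2). SNAP25, the only neuron and muscle gene tested on strong summits, was also called lower (7 to 5). The SNAP25 call ended without scaling, at equal list length and in 20 kb and 100 kb windows. The LYVE1 call ended in 100 kb windows (0.09). Those for CDH5 (4 and 6 summits), MYOD1 (2 and 2) and MYH7 (5 and 0) ended in 20 kb windows. The PDGFRB and TNNT2 calls held in both windows. The medians of these 3 marker lists were -0.02, 0.16 and -0.17. The summed blood count was 344 and 397, and the neuron and muscle count 251 and 231.

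The third comparison was of H3K4me1 at gene starts. H3K4me1 formed a trough at the start and shoulders on both sides. Per 1000 starts, the first 250 bases after the start averaged 27.9 (0 µM) and 25.2 (15 µM) summits, and the bases 1000 to 1250 downstream 113 and 114. Of the 15811 protein-coding genes with a start in the promoter table, 6412 had a summit within 1 kb at 0 µM and 6358 at 15 µM. Strong summits were more numerous at 15 µM on the shoulders: between 1 and 2.5 kb downstream there were 786 at 0 µM and 1198 at 15 µM, a ratio of 1.52, and between 1 and 2.5 kb upstream 493 and 716, a ratio of 1.45. Both exceed the 1.21 of the strong lists. Within 250 bp of a start there were 55 and 49, a ratio of 0.891. A strong summit within 5 kb was present at 16.7% of starts at 0 µM and 22.2% at 15 µM.

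**Figure D3:**
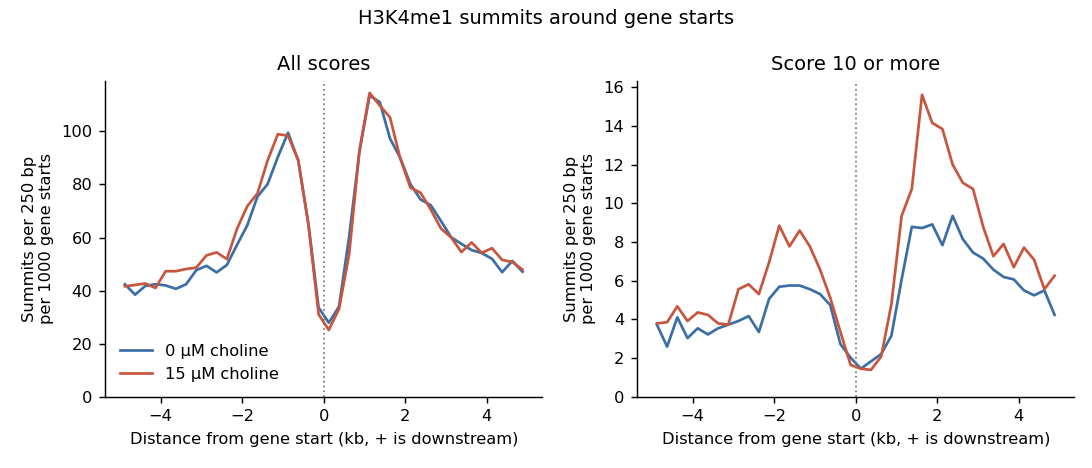
Summits per 250 bp and 1000 gene starts by distance from the start in kb (positive is downstream), for all scores on the left and for scores of 10 or more on the right, at 0 µM (blue) and 15 µM (red). Both lists dip at the start. The curves lie together at all scores, and at 10 or more the 15 µM curve stands higher on the shoulders, with 1198 against 786 summits between 1 and 2.5 kb downstream.

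Few gene starts gained or lost H3K4me1 outright. A start was lost when it had a strong summit within 1 kb at 0 µM and no summit of any score within 2 kb at 15 µM, and gained in the opposite case. Of 364 starts with a strong summit at 0 µM, 19 were lost (5.22%), and of 413 at 15 µM, 8 were gained (1.94%). Strong summits stood at 130 starts in both lists. The lost starts with the highest scores were those of AVPR1B, a vasopressin receptor, whose summit scored 4719, FABP1, the liver fatty acid-binding protein, with 24.4, and LOC124900189, TMEM156 and PLEKHG1, with 21.1 each. The gained ones were those of AGXT2, a mitochondrial aminotransferase, with 23.3, AGMO, which cleaves ether lipids, with 17.7, MINPP1, an inositol phosphate phosphatase, and NINJ2, ninjurin-2, with 15.2 each, and SLC38A1, a glutamine transporter, with 14.2. Each of the 27 had a summit of the other list further out. It lay 2258 bp away at FABP1, 2641 bp at AGXT2 and 5936 bp at PLEKHG1, and none of the 27 remained when absence was asked within 10 kb.

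The mark lay mostly away from gene starts. Within 1 kb of a start lay 2.20% (2.15 to 2.25) of summits at 0 µM and 2.10% (2.06 to 2.15) at 15 µM, and of strong summits 1.13% and 1.05%. Inside protein-coding genes lay 55.2% and 55.3%, and of strong summits 59.5% and 60.0%. More than 2.5 kb from every gene end lay 89.8% of both lists, and 91.9% and 91.2% of strong summits.

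The fourth comparison was of the positions in the 2 lists. Of the 0 µM summits, 44.5% (44.3 to 44.6) had a 15 µM summit within 500 bp, and of the 15 µM summits 43.5% (43.3 to 43.7) had a 0 µM summit. The stretches within 500 bp of the other list cover 11.1% and 10.9% of the span searched. For strong summits against all summits of the other dose the shares were 59.0% (58.5 to 59.5) and 66.6% (66.2 to 67.1), and within 2 kb they were 92.6% and 96.7%, where the cover is 30.3% and 29.6%. Only 2432 strong summits at 0 µM (7.44%) and 1298 at 15 µM (3.29%) had no summit at all within 2 kb in the other list. The highest-scoring neighbour within 2 kb in the other list was below 10 for 39.4% of strong 15 µM summits and 22.5% of strong 0 µM summits. It was below 3 for 1.36% and 1.49%. The 15 µM list held 1.21 times as many strong summits, and equal scores do not mark equal enrichment in both lists. Sharing within 500 bp was highest at a score of 10 to 15, at 62.5% of the 0 µM list and 72.5% of the 15 µM list. It was lower in the range of 20 to 30, at 49.6% and 58.5%.

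The fifth comparison set H3K27ac beside H3K4me1. The share of H3K4me1 summits with an H3K27ac summit of the same dose within 1 kb climbed with the H3K4me1 score. It went from 1.97% at scores under 2 to 56.9% at 30 to 50 in the 0 µM list, and from 1.15% to 48.7% in the 15 µM list. Above 50 it was 16.2% (8.67 to 26.6) of 74 summits at 0 µM and 57.9% (48.3 to 67.1) of 114 at 15 µM. Over strong summits it was 30.4% (29.9 to 30.9) at 0 µM and 21.7% (21.3 to 22.1) at 15 µM. The H3K27ac list is shorter at 15 µM, with 29305 summits against 37946. Against the same 0 µM H3K27ac list the shares of strong summits were 30.4% and 26.6%, and with the 32692 highest H3K4me1 summits of each list 30.4% and 29.1%.

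**Figure D4:**
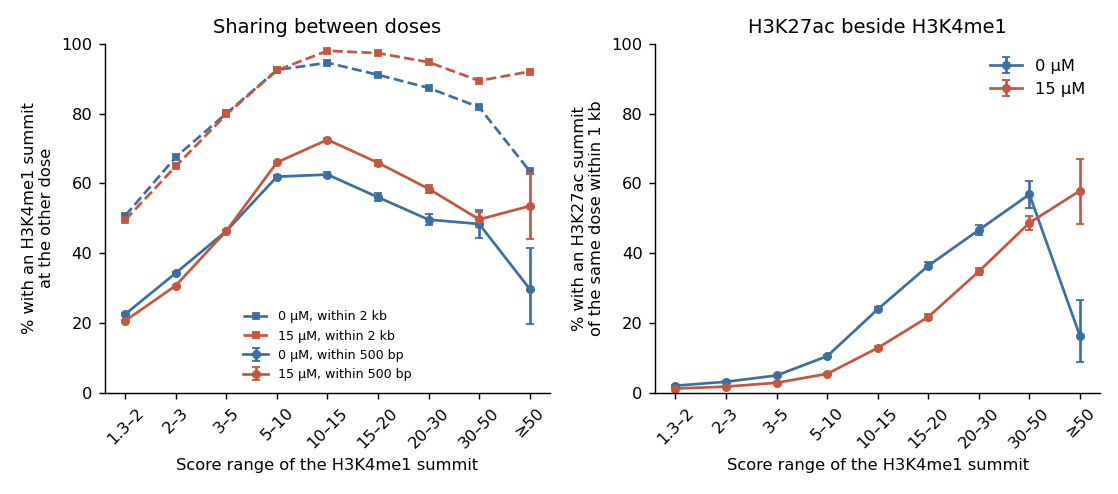
Share of H3K4me1 summits in 9 score ranges that have an H3K4me1 summit of the other dose within 500 bp (solid) or 2 kb (dashed), on the left, and that have an H3K27ac summit of the same dose within 1 kb, on the right, at 0 µM (blue) and 15 µM (red), with exact 95% intervals on the solid lines. Sharing peaks at 10 to 15 (62.5% and 72.5% within 500 bp). H3K27ac climbs with score, except for the 74 summits of 50 or more at 0 µM (16.2%).

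Strong summits that one list had and the other lacked carried H3K27ac more often than shared ones. Of strong summits with none within 2 kb in the other list, 45.5% (43.5 to 47.5) at 0 µM and 41.2% (38.5 to 44.0) at 15 µM had H3K27ac of the same dose beside them, against 25.9% (25.3 to 26.5) and 18.6% (18.1 to 19.1) of those shared within 500 bp. The classes were not matched on score, and above a score of 15 sharing was lower and H3K27ac more frequent. Distal sites, over 2.5 kb from every gene end, that were strong and shared numbered 12557. Of these, 62.2% (61.4 to 63.1) had no H3K27ac at either dose, 18.2% had it at both, 12.6% at 0 µM only and 7.04% at 15 µM only. Read from the H3K27ac side, 65.2% of summits at 0 µM and 58.5% at 15 µM had an H3K4me1 summit within 1 kb, and 30.8% and 35.9% had a strong one.

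Along the chromosomes the 2 lists were alike at coarse scale. In bins of 5 Mb the counts correlated with r = 0.974 over 574 bins at all scores and r = 0.964 over 491 bins for strong summits, as a description, since bins of one library share its depth. Of these bins 0 and 12 passed 1.5-fold after scaling. Chromosome X stood apart, with 1.14 times as many summits at 15 µM and 1.67 times as many strong ones (566 against 338). Among the 22 autosomes the ratios ranged from 0.874 to 1.09 and from 1.02 to 1.27. Strong summits were 4.14% of X summits at 0 µM and 6.08% at 15 µM, against 7.62% to 11.0% and 7.98% to 13.7% on the autosomes. The limit of 10 thus lay further up the scores on X. Over the whole lists the ratio was 1.21 at a score of 10 or more and 2.17 at 20 or more. Its part in the X ratio was not tested. The H3K27ac ratio on X was 0.611, the lowest of the 23 chromosomes. Chromosome 20 had the lowest ratio at all scores, 0.874, with 42 of its 481 tested gene windows called lower and 10 higher, while on X 82 of 491 were higher and 27 lower. Over all 17695 windows tested 7.49% were higher and 4.92% lower. The calls scale by the ratio of the whole lists, so these counts partly restate the chromosome ratios and are not a separate result. On strong summits only 14 X windows were tested, of which 0 were higher and 1 lower, against 7.68% and 12.1% of all windows tested.

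**Figure D5:**
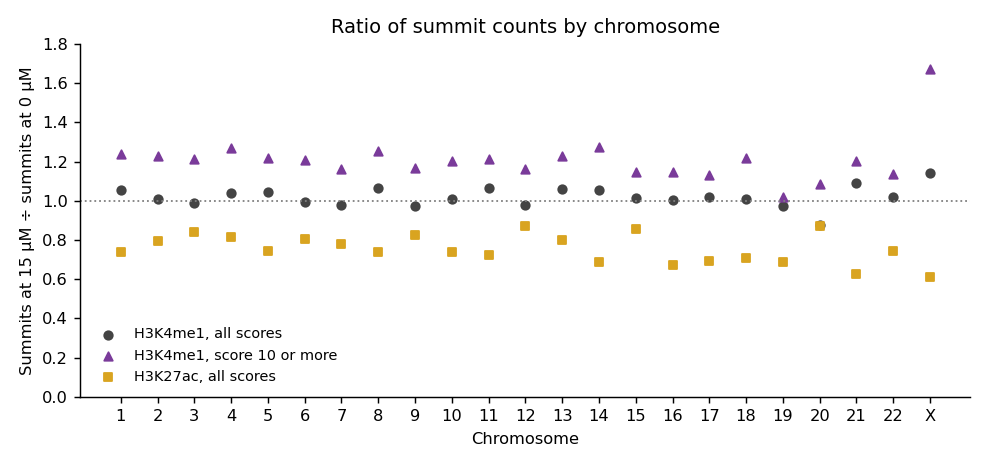
Ratio of the number of summits at 15 µM to that at 0 µM on each chromosome for H3K4me1 at all scores (circles), H3K4me1 at scores of 10 or more (triangles) and H3K27ac (squares), with a dotted line at 1. Strong H3K4me1 summits are above 1 on 23 of 23 chromosomes and reach 1.67 on X, and H3K27ac is below 1 on all 23.

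Neighbouring summits were grouped into stretches when at most 2 kb apart. There were 199584 stretches at 0 µM and 205271 at 15 µM, of which 63.3% and 63.4% held a single summit, and 8671 and 8352 held 5 or more. The longest at 0 µM lay in LRIG1, a negative regulator of receptor tyrosine kinases (24430 bp, 21 summits, against 7 summits at 15 µM in that span), YWHAE, a 14-3-3 protein (23949 bp, 20 against 16), IQGAP2, a scaffold protein (23461 bp, 21 against 13), PTPRG, a tyrosine phosphatase (20866 bp, 19 against 17) and TBC1D8 (20441 bp, 20 against 13). The longest at 15 µM lay in ATP11A, a phospholipid flippase (19574 bp, 16 summits, against 13 at 0 µM), 340383 bp from USP25, a deubiquitinase, and in RABGAP1, VPS37B and COX7A2L. Each of the 10 held from 0 to 3 H3K27ac summits at either dose. A stretch was chosen for its length in one list, so a lower count in the other is not a result.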

How the data were processed

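Summit lists from 4 ChIP-seq libraries were used, 2 for H3K4me1 and 2 for H3K27ac. The other 8 samples were not analysed here. Per the submitters' processing notes, the tools were Bowtie, Picard, deepTools and MACS2 and the build was hg38. The authors deposited 1 summit per line, and its score was read as a −log10 p-value or q-value from the layout of the deposited lists. Not given in the sources used here are which of the 2 it is, the thresholds and the use of input libraries. Read depth is unknown, so precision rests on 95% Clopper-Pearson (exact) intervals for shares, covering counting error alone.

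Positions were written 1-based, and 422 and 429 lines on other sequences were left out of the H3K4me1 lists. Gene spans came from a RefSeq gene table and gene starts and strand from the RefSeq promoter table, both of GRCh38.p14. No exon, intron or UTR positions were used. Windows took summits within 50 kb of either gene end, so neighbouring genes share summits. Python 3.11.15, numpy 2.4.6, pandas 2.3.3, scipy 1.17.1 and matplotlib 3.10.9 were used, and the counting code was tested on simulated data.

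No test was possible between doses, so calls are folds past 1.5. Named genes were the 8 largest scaled gains and 8 largest losses at all scores and for strong summits, leaving out any gene closer than 200 kb to an earlier one, the 5 gained and 5 lost starts with the highest scores, the genes nearest the 5 longest stretches of each list, the extreme and the called members of the 16 gene lists, and KLF5, AFP and ALB. Values of some list members that this rule names are not reported here. The genes, the lists and the thresholds were chosen with earlier results of these data known. Alternatives changed the matching distance, score limit, window, scaling, minimum, fold, list length and spacing. Scaling by chromosome was added after seeing the data.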

Additional observations from a re-analysis of the deposited data

How the results depend on the processing

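No paired analysis was possible because each dose held 1 library. With no replicate, neither the spread between cultures nor read depth is known, and depth, precipitation and the level of the mark cannot be told apart. The scores of the lists lie on different repeated values, and small window counts turn on few summits.

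With 1 summit kept per 1 kb, the ratio of list lengths was 1.024, the shared shares were 39.4% (0 µM) and 38.5% (15 µM) over all scores and 57.5% and 63.5% for strong summits. The ratio was 0.959 at a score of 5 or more and 2.17 at 20 or more. Within 250 bp the shared shares were 26.9% and 26.4%, and 37.0% and 41.8% for strong summits. Within 1 kb they were 62.3% and 60.6%, and 79.0% and 86.7%. With lists of equal length they were 44.2% and 43.9% over all scores and 65.2% for strong 15 µM summits. Within 2 kb of a start lay 5.11% and 5.09% of summits, and 3.59% and 4.02% of strong ones. H3K27ac lay within 500 bp of 4.34% and 2.81% of summits, and of 19.2% and 14.2% of strong ones. With H3K27ac lists of equal length the 0 µM shares were 6.06% and 25.5%, and with strong lists of equal length the 15 µM share was 24.0%.

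Gene windows past 2-fold numbered 238 higher and 176 lower over all scores, and 39 and 31 for strong summits. With at least 20 summits, 905 were higher and 568 lower over all scores, and 5 were higher and 36 lower for strong ones. For strong summits, 20 kb windows gave 22 higher and 85 lower, 100 kb windows 492 and 626, and no scaling 469 and 100. Of the 206 and 325 strong calls, 6 and 37 were also called in 20 kb windows, where only 523 of 2681 windows reached the minimum. Of the 1326 and 870 calls over all scores, 592 and 351 were also called in 20 kb windows and 499 and 283 in 100 kb windows. Gained and lost starts both numbered 0 when absence was asked within 10 kb. Within 20 kb the log2 difference changed sign at TNFSF4 (-0.14), KDM1B (-0.022), SCAP (-0.19), YAP1 (0.12) and ZEB1 (-0.14). The cause of these shifts was not tested.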

Other observations

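A small set of H3K4me1 summits at 0 µM had scores far above the rest of either list. There were 53 with a score of 100 or more at 0 µM against 2 at 15 µM, and 46 of the 53 scored above 158, the highest score at 15 µM. The highest was 15025, inside FAT1, an atypical cadherin. Next came summits inside ZBTB10, a zinc-finger repressor (5044), AVPR1B (4719), CREBZF, a leucine zipper factor (4706), PDIA4, a chaperone of the endoplasmic reticulum (3971), ZNF121 (2278) and MRPL12, a protein of the mitochondrial ribosome (1284). Of the 53, 48 lay inside protein-coding genes, 9 had a 15 µM summit within 500 bp and 5 had an H3K27ac summit of the same dose within 1 kb. The lost start of AVPR1B rests on one of them.

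The highest summits at 15 µM lay beside IPO8, an importin (158), near BBOX1, which makes carnitine from gamma-butyrobetaine (101), and near NUBPL, an assembly factor of respiratory complex I (89.5). The IPO8 summit had a 0 µM summit 84 bp away, and all 3 had an H3K27ac summit within 1039 bp.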
